A study of Sus scrofa with 8 samples.

Results

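Liver transcripts of 9 genes of the unfolded protein response and of chaperones of the endoplasmic reticulum (ER) were examined in lactating and non-lactating sows: HSPA5, HSP90B1, CRELD2, MANF, DNAJB11, KDELR3, DDIT3, XBP1 and PDIA4. They are the members of a list of 10 genes that had a named probe set in the deposited array table, 9 of 8146 genes measured. The listed gene HYOU1 had no named probe set there and is not analysed here. Members were found by gene symbol, brought up to date by gene identifier where one matched. The brightest probe set by the mean of 8 arrays stood for each gene.

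Total RNA of frozen liver from female pigs (Sus scrofa) was measured on Affymetrix arrays, on which a set of short probes reads 1 transcript. The lactating group had 8 sows and the non-lactating control group had 8 sows. Equal amounts of RNA from 2 sows made a pool, and each group had 4 pools with 1 array each, so the pool is the replicate and the spread is that of averages of 2 animals. No label gives a genotype, treatment, age, parity or day of lactation, and both groups are described only as liver tissue.

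Secreted and membrane proteins fold in the ER, where HSPA5 (BiP) and HSP90B1 (GRP94) bind unfolded chains and disulfide isomerases join their cysteines. When unfolded chains accumulate, the sensors ERN1 (IRE1), EIF2AK3 (PERK) and ATF6 start the unfolded protein response, in which spliced XBP1, ATF6 and ATF4 raise chaperone, degradation and stress genes. Liver exports most plasma proteins and has a large ER.

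Values are log2 signals as deposited, where a difference of 1 is a doubling. They rank pools for a probe set and do not compare levels between genes. The number of arrays limits the precision. Correlations between arrays, taken across probe sets, were 0.991 to 0.994 within lactating pools, 0.992 to 0.994 within non-lactating pools and 0.984 to 0.991 between groups. The hepatocyte marker ALB had 15.2 ± 0.02 in lactating pools and 15.2 ± 0.01 in non-lactating pools (SD, n = 4 each). Its value in non-lactating pool 3, 15.2236, was the highest signal of all probe sets. The normalisation makes the highest signals of all arrays nearly equal, so ALB cannot show whether hepatocyte content was equal. In bulk liver RNA, fewer cells of a type and less RNA per cell cannot be told apart.

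Of the 9 members, 5 rose in lactating livers, namely KDELR3, CRELD2, DNAJB11, MANF and HSP90B1, with folds of 1.42 to 2.07, and 0 fell (limma, p adjusted over 23999 probe sets below 0.05). Over all genes 6.11% rose and 2.52% fell, and over all probe sets 3.74% rose and 3.11% fell. HSPA5, PDIA4, DDIT3 and XBP1 did not pass. All 9 differences were positive, with a median of 0.50 against 0.01 over all genes, of which 52.6% were positive. In 6 of 9 members every lactating pool lay above every non-lactating pool, against 12.8% of all genes. The reverse held for 0 of 9 members and 6.51% of all genes.

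**Figure D1:**
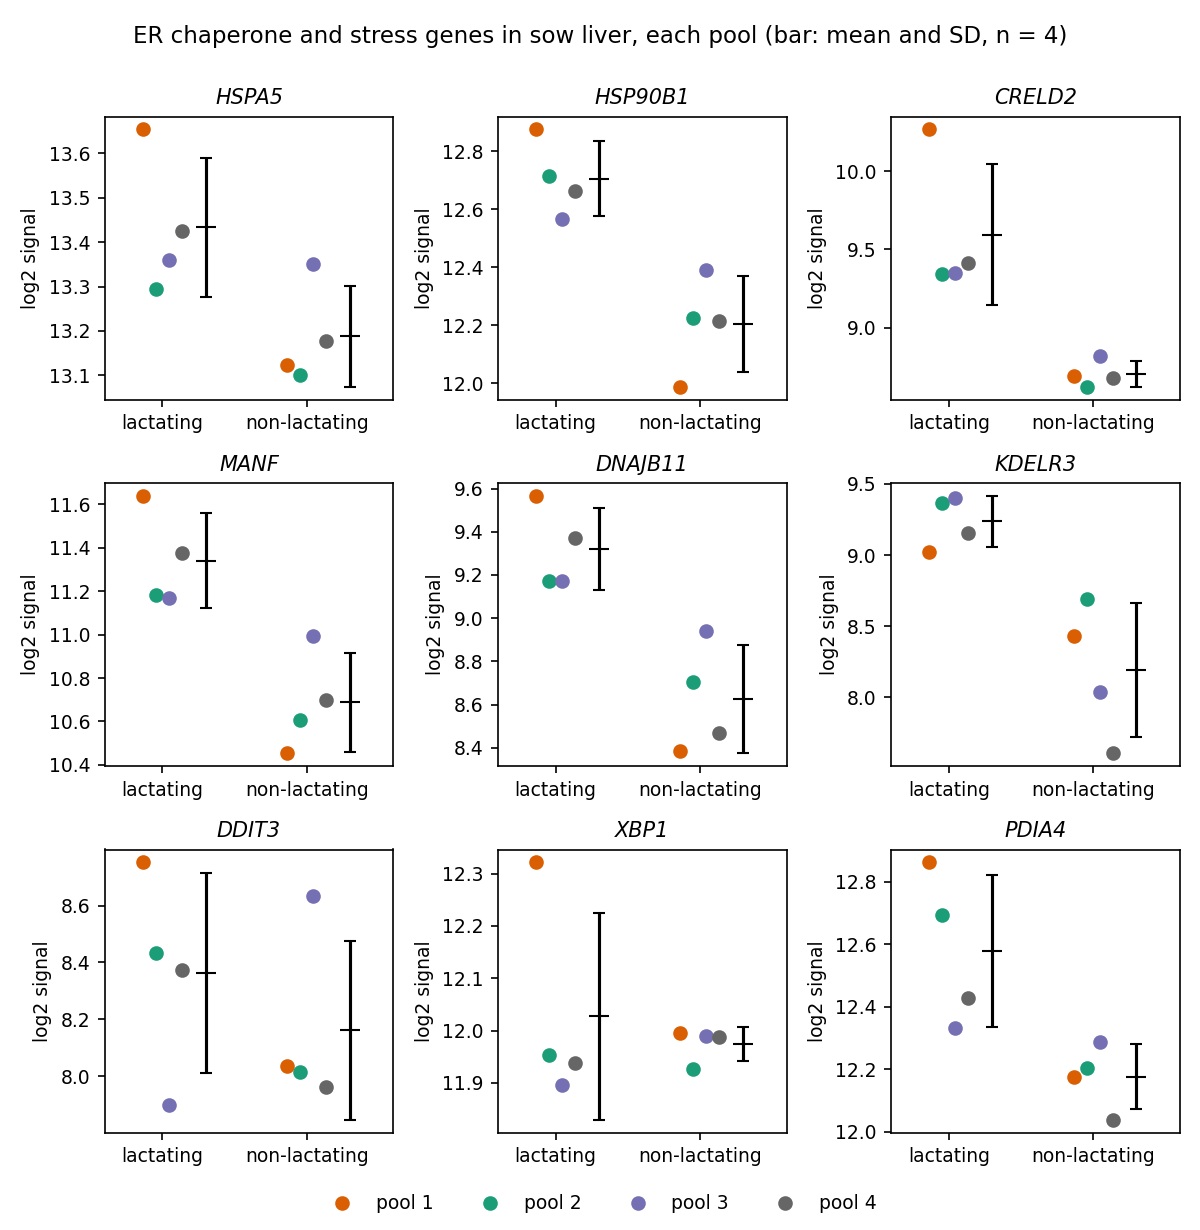
Log2 signal (vertical axes) of the 9 members in the 4 lactating pools (left in each panel) and the 4 non-lactating pools (right), 1 coloured point per pool, with black bars for the mean and SD (n = 4). The groups do not overlap for HSP90B1, CRELD2, MANF, DNAJB11, KDELR3 and PDIA4, and lactating pool 1 is the highest lactating pool for every member except KDELR3.

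Among the general chaperones, HSPA5 is the main ER HSP70, which also holds the stress sensors inactive. Its log2 signal was 13.65, 13.29, 13.36 and 13.43 in lactating pools 1 to 4, against 13.12, 13.10, 13.35 and 13.18 in non-lactating pools 1 to 4. The groups overlapped, since non-lactating pool 3 lay above lactating pool 2. The difference was 0.25 ± 0.10 (SE, 95% interval 0.03 to 0.46), a fold of 1.19, and did not pass (limma, adjusted p = 0.167).

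HSP90B1, the ER member of the HSP90 family, had 12.88, 12.72, 12.57 and 12.66 in lactating pools, against 11.99, 12.22, 12.39 and 12.21 in non-lactating pools. Every lactating pool was higher than every non-lactating pool. The rise was 0.50 ± 0.10 (SE), a fold of 1.42 (limma, adjusted p = 0.0229). Another probe set, assigned both to HSP90B1 and to a similar gene (LOC100515139), differed by 0.44 ± 0.14 (SE) and did not pass (limma, adjusted p = 0.0952).

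DNAJB11 (ERdj3) is a J-domain partner that hands unfolded chains to HSPA5. It had 9.57, 9.17, 9.17 and 9.37 in lactating pools, against 8.38, 8.70, 8.94 and 8.47 in non-lactating pools. The groups did not overlap, and lactating pool 1 was again the highest. It rose by 0.70 ± 0.14 (SE), a fold of 1.62 (limma, adjusted p = 0.0214).

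PDIA4 (ERp72) is a disulfide isomerase. Its brightest probe set had 12.86, 12.69, 12.33 and 12.43 in lactating pools, against 12.18, 12.20, 12.29 and 12.04 in non-lactating pools, without overlap. The difference of 0.40 ± 0.12 (SE), a fold of 1.32, did not pass (limma, adjusted p = 0.0754). A dimmer PDIA4 probe set had 7.54, 6.87, 6.57 and 6.85 in lactating pools, against 5.30, 5.85, 6.52 and 5.95 in non-lactating pools. It rose by 1.05 ± 0.26 (SE), a fold of 2.08 (limma, adjusted p = 0.0419), so the call for this gene depends on the probe set.

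CRELD2 and MANF are small ER proteins that are induced by ER stress in mouse and human cells, and MANF can also be secreted. CRELD2 had 10.27, 9.35, 9.35 and 9.41 in lactating pools, against 8.69, 8.62, 8.82 and 8.68 in non-lactating pools. The lactating pools were all higher, and lactating pool 1 stood well above the other lactating pools. CRELD2 rose by 0.89 ± 0.19 (SE, 95% interval 0.47 to 1.31), a fold of 1.85 (limma, adjusted p = 0.0261).

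MANF had 11.64, 11.18, 11.17 and 11.37 in lactating pools, against 10.45, 10.61, 10.99 and 10.70 in non-lactating pools. The groups did not overlap, and the highest non-lactating pool was pool 3. MANF rose by 0.65 ± 0.14 (SE), a fold of 1.57 (limma, adjusted p = 0.0256).

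KDELR3 is a Golgi receptor that returns escaped ER proteins with a KDEL-type tail, such as HSPA5. It had 9.02, 9.36, 9.40 and 9.16 in lactating pools, against 8.43, 8.69, 8.04 and 7.60 in non-lactating pools. All lactating pools were higher, and here the highest were lactating pool 3 and non-lactating pool 2. KDELR3 rose by 1.05 ± 0.21 (SE, 95% interval 0.58 to 1.51), a fold of 2.07 (limma, adjusted p = 0.0219). Its other probe set rose by 0.40 ± 0.10 (SE), also without overlap (limma, adjusted p = 0.0364).

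The transcription factors DDIT3 and XBP1 did not pass. DDIT3 (CHOP), a factor of the PERK branch, had 8.75, 8.43, 7.90 and 8.37 in lactating pools, against 8.04, 8.02, 8.63 and 7.96 in non-lactating pools. The groups overlapped, since non-lactating pool 3 lay above 3 lactating pools. The difference was 0.20 ± 0.19 (SE, 95% interval -0.23 to 0.64; limma, adjusted p = 0.598). It was 0.073 without lactating pool 1 and 0.36 without non-lactating pool 3 or lactating pool 3. An interval that reaches a fold of 1.56 does not show equal levels.

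XBP1, whose messenger is spliced by IRE1, had 12.32, 11.95, 11.90 and 11.94 in lactating pools, against 11.996, 11.93, 11.99 and 11.99 in non-lactating pools. Lactating pool 1 was the highest, pools 2 and 4 lay within the non-lactating range, and pool 3 lay below it. The difference was 0.05 ± 0.10 (SE, 95% interval -0.17 to 0.27; limma, adjusted p = 0.817), and it was -0.05 without lactating pool 1 and -0.02 with cyclic loess scaling. The probe set cannot be assumed to tell spliced from unspliced XBP1. The deposited table names it as an XBP1 pseudogene, and its Entrez identifier is that of XBP1 in the Sscrofa11.1 gene table.

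**Figure D2:**
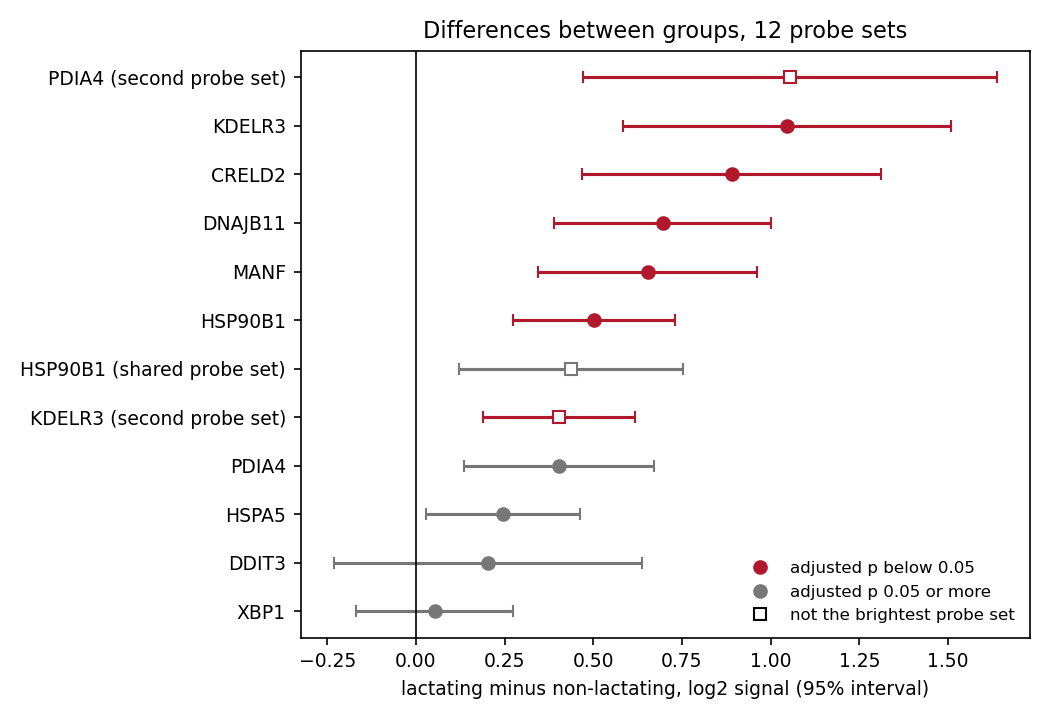
Difference in log2 signal, lactating minus non-lactating (horizontal axis), with 95% intervals for each member probe set, red where the limma adjusted p is below 0.05 and grey otherwise. Open squares are probe sets that do not stand for the gene. KDELR3 lies at 1.05 and XBP1 at 0.05, the extremes among the probe sets that stand for a gene.

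The deposited table places HSPA5 on chromosome 1 at 280786764 to 280791200 on the plus strand. HSP90B1 (75619953 to 75627941, plus strand), CRELD2 (100021443 to 100022765, plus strand), KDELR3 (5865792 to 5866096, minus strand) and DDIT3 (21617676 to 21619422, plus strand) are on chromosome 5. MANF (28523268 to 28527271, minus strand) and DNAJB11 (93990035 to 94008659, plus strand) are on chromosome 13. PDIA4 is on chromosome 9 at 101864721 to 101876396 on the plus strand, and XBP1 on chromosome 14 at 46572993 to 46573645 on the minus strand. CRELD2, KDELR3 and PDIA4 carry provisional symbols there (LOC100520025, LOC100514523 and LOC100522203). They were named by identifier, and their deposited titles name the same genes. These are alignments of probe set targets, and the table does not name their assembly in words.

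The calls depended on single pools. Without lactating pool 4, 0 of the 9 members passed in limma, with 6 at an unadjusted p below 0.05, against 7 with all pools. Over all 23999 probe sets 598 passed in that fit, against 1643 with all pools. An unadjusted p below 0.05 was found for 4831 probe sets in that fit, against 5489 with all pools. The differences were then 1.07 for KDELR3, 0.95 for CRELD2, 0.68 for DNAJB11, 0.64 for MANF and 0.52 for HSP90B1, with adjusted p-values of 0.0517 to 0.0641. Without non-lactating pool 1 or non-lactating pool 4, only KDELR3 passed among the members, and 406 and 646 of all probe sets. Leaving out lactating pool 2 removed HSP90B1 and KDELR3, lactating pool 3 removed KDELR3, and non-lactating pool 2 removed CRELD2 and MANF. In these fits 872, 775 and 1162 of all probe sets passed. All 5 passed without lactating pool 1 and without non-lactating pool 3, where 1424 and 1215 of all probe sets passed.

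A reading of RNA integrity also differed between the groups. The 3' minus 5' log2 signal of the control transcripts, their mean, was 3.90, 4.00, 3.75 and 3.34 in lactating pools, against 5.02, 4.21, 4.14 and 4.49 in non-lactating pools (exact permutation test, 2-sided p = 0.0286, the smallest possible with 4 against 4). With this reading as a covariate, 0 of the 9 members passed in limma, as did 0 of all 23999 probe sets. An unadjusted p below 0.05 was found for 4 of the 9 members and for 2474 of the 23999 probe sets (limma). The fitted differences were then 1.12 for KDELR3, 0.98 for CRELD2, 0.44 for MANF, 0.42 for DNAJB11 and 0.36 for HSP90B1. RNA integrity and lactation cannot be told apart in these pools.

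Markers of other liver cells were set beside the members. For comparison with the counts below, 6.11% of all genes rose and 2.52% fell in lactating livers. The summed linear signal of the 7 measured hepatocyte markers was 174600 to 178400 in lactating pools and 173000 to 179400 in non-lactating pools, and 1 of them fell (SERPINA1). Its brightest genes, ALB and TF, lie near the top of the signal range, so this sum cannot show whether hepatocyte content was equal. For the 5 measured of 10 plasma and B cell markers, whose cells also have a rich ER, the summed signal was 1902 to 2216 in lactating pools and 1730 to 2088 in non-lactating pools, and 0 passed. Of the 7 measured endothelial markers 4 fell, with sums of 1620 to 1844 in lactating pools and 2178 to 2396 in non-lactating pools. Of the 7 measured stellate cell and fibroblast markers 2 fell, with sums of 7973 to 11370 in lactating pools and 11780 to 13260 in non-lactating pools. The 7 measured Kupffer cell and macrophage markers summed to 2704 to 3142 in lactating pools and 2876 to 3363 in non-lactating pools, and the 4 cholangiocyte markers to 278.8 to 371.4 in lactating pools and 253 to 559.1 in non-lactating pools, with 0 passed in either list. These signals have no true zero, so no marker can be read as absent. The part of these cells in the member differences was not tested.

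Across the 8 pools most members varied together. Of 9 members, 8 were highest in lactating pool 1 among the lactating pools, against 24.3% of all genes. Of the same 9, 7 were highest in non-lactating pool 3 among the non-lactating pools, against 23.9% of all genes, and 7 of 9 had both peaks, against 4.27%. Averaged over the members, log2 signals lay 0.78, 0.47, 0.36 and 0.47 above the non-lactating mean in lactating pools 1 to 4, and -0.07, 0.02, 0.17 and -0.12 from it in non-lactating pools 1 to 4.

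Deviations from the group means, which take out the difference between groups, gave a median Pearson correlation of 0.66 over the 36 pairs of members and a median Spearman correlation of 0.48. The median over all pairs of genes was 0.01. These are descriptions over 8 pools whose arrays all genes share, so the pairs are not independent. Of the 36 pairs, 27.8% exceeded 0.8 by Pearson, against 2.09% of all gene pairs, and 11.1% by Spearman, against 2.13%.

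CRELD2 and XBP1 had the closest deviations (r = 0.98, Spearman 0.90), although CRELD2 rose in lactating livers and XBP1 did not pass. Lactating pool 1 weighs heavily in this r, with deviations of 0.67 for CRELD2 and 0.29 for XBP1. In the other pools they were -0.25 to 0.11 for CRELD2 and -0.13 to 0.02 for XBP1. HSPA5 with MANF (r = 0.94, Spearman 0.76), MANF with DNAJB11 (r = 0.90, Spearman 0.81) and HSP90B1 with MANF (r = 0.89, Spearman 0.83) followed the same pools. The brightest KDELR3 probe set had correlations of -0.55 with MANF to 0.003 with PDIA4 and a median of -0.37. The other KDELR3 probe set had correlations of -0.02 with XBP1 to 0.72 with DDIT3 and a median of 0.44, so the pattern of this gene depends on the probe set. The probe set shared by HSP90B1 and LOC100515139 had -0.16 with MANF and a median of -0.13. It had -0.35 with the brightest HSP90B1 probe set, so the HSP90B1 pattern also rests on 1 probe set. The dimmer PDIA4 probe set had correlations of -0.50 with KDELR3 to 0.98 with HSP90B1 and a median of 0.83.

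Without lactating pool 1, the median correlation was 0.47 and 6 pairs exceeded 0.8, in place of 10. Without both lactating pool 1 and non-lactating pool 3, a choice made after seeing the data, it was 0.17 and 0 pairs exceeded 0.8. Those pools were picked because most members peaked there, so a lower value follows from the choice, and no other 2 pools were left out together. Without non-lactating pool 3 alone, the median was 0.66 and 9 pairs exceeded 0.8.

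**Figure D3:**
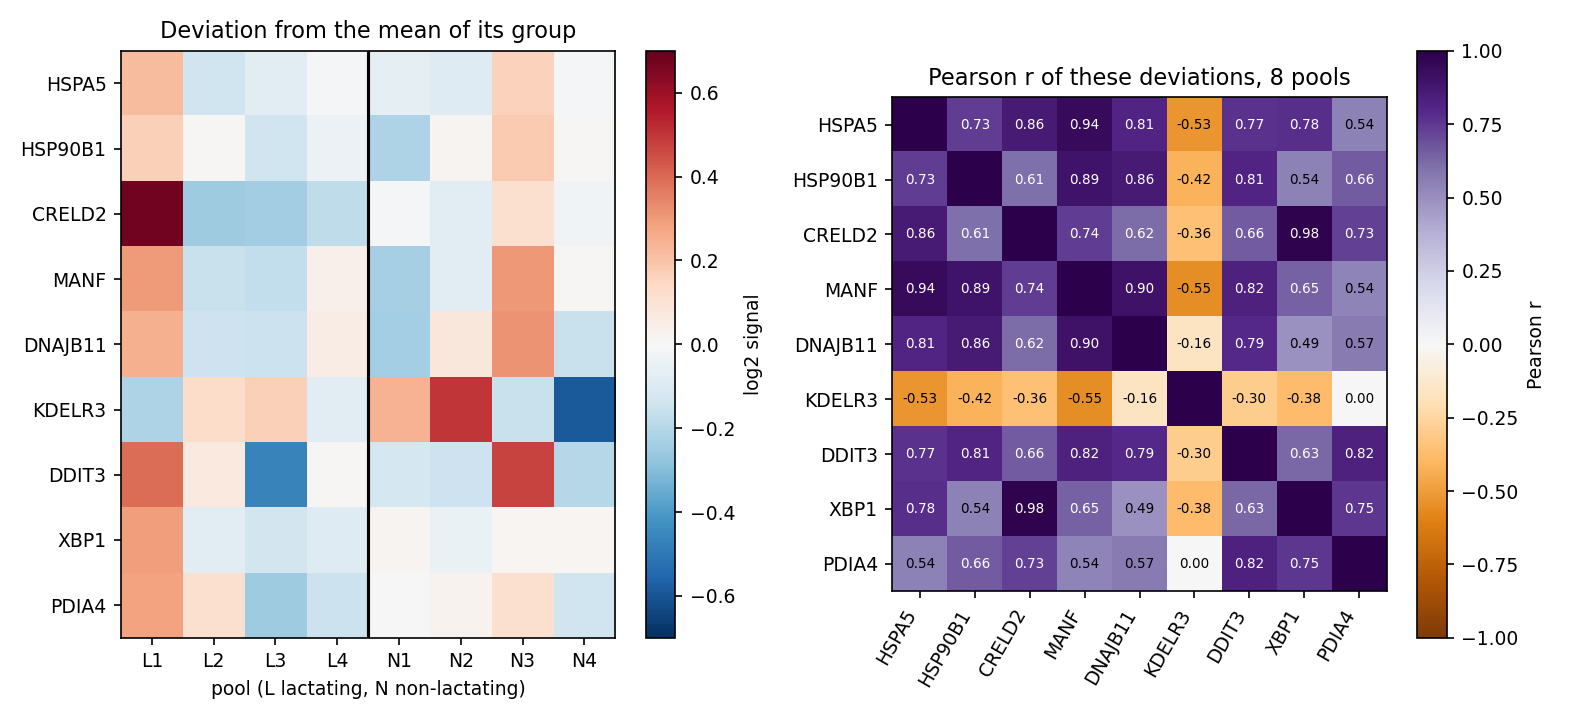
Left, the deviation of each member from its group's mean (log2 signal, colour) in lactating pools L1 to L4 and non-lactating pools N1 to N4. Right, Pearson correlations of these deviations over 8 pools for each pair of members (colour from -1 to 1). The brightest KDELR3 probe set has no positive correlation above 0.003 with another member, and most members are highest in lactating pool 1 and non-lactating pool 3.

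The genes whose deviations were most like the members' mean profile, out of 8137 compared, were ICE2 (r = 0.97), C5 (r = 0.96), IL7 (r = 0.95), CDK2AP2 (r = 0.94), PMS1 (r = 0.94), FGG (r = 0.93), DAO (r = 0.93) and PGM3 (r = 0.92). Their Spearman correlations, in the same order, were 0.83, 0.79, 0.95, 0.81, 0.88, 0.64, 0.79 and 0.69. C5 is a complement protein and FGG the gamma chain of fibrinogen, both made by hepatocytes. PGM3 is an enzyme of amino sugar synthesis for glycans. None of the 8 passed the test between lactating and non-lactating pools, with adjusted p-values of 0.0653 to 0.511 in limma. In all, 17 genes (0.209%) exceeded 0.9 by Pearson, and 26 genes (0.32%) lay below -0.9. Of 84 other measured genes of ER folding and quality control, 3 exceeded 0.8 (3.57%, against 1.39% of the 8137 genes). They were DNAJB9 (r = 0.91), PDIA3 (r = 0.90) and PDIA6 (r = 0.87). The 84 genes ranged from -0.82 to 0.91, with a median of 0.25 against -0.04 over the 8137 genes.

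The other genes of ER folding and quality control were counted by role. Of 84 measured of 138 listed in 8 groups, 10 rose and 1 fell in lactating livers, against 6.11% and 2.52% of all genes. The differences were positive for 72 of 84, against 52.6% of all genes, with a median of 0.18. Without overlap between the groups, 26 were higher and 1 was lower in lactating pools, against 12.8% and 6.51% of all genes.

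Among stress sensors and transcription factors, 0 of 6 rose and 1 fell. ATF6B, a relative of ATF6, had 8.76 ± 0.06 in lactating pools and 9.12 ± 0.16 in non-lactating pools (SD, n = 4 each). It fell by 0.36 ± 0.09 (SE; limma, adjusted p = 0.0455), and did not pass in 7 of the 8 fits that left out 1 pool. ATF4, the factor of the PERK branch, differed by 0.13 ± 0.08 (SE; limma, adjusted p = 0.376). Of 5 measured PERK and ATF4 branch targets 0 passed, and DDIT4 differed by 0.03 and CEBPB by 0.23. Leaving out 1 pool gave 0.14 (without lactating pool 1 or non-lactating pool 3) to 0.39 (without lactating pool 3) for CEBPB, and -0.12 (without lactating pool 1) to 0.23 (without lactating pool 3) for DDIT4.

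Of 13 other ER chaperones 1 rose. FKBP7, a prolyl isomerase, had 7.67 ± 0.12 in lactating pools and 7.14 ± 0.26 in non-lactating pools (SD, n = 4 each), and rose by 0.53 (limma, adjusted p = 0.0364). It passed in 1 of the 8 fits that left out 1 pool, that without non-lactating pool 3, and the adjusted p reached 0.0872 in the others. CANX (calnexin), the lectin chaperone of glycoproteins, differed by -0.01 ± 0.08 (SE; limma, adjusted p = 0.959). Of 11 disulfide isomerases and oxidases 2 rose. PRDX4, an ER peroxidase, had 12.2 ± 0.08 in lactating pools and 11.3 ± 0.28 in non-lactating pools and rose by 0.83 (limma, adjusted p = 0.0127). ERP44, which retains ER oxidases and client proteins, rose by 0.60 (limma, adjusted p = 0.0181). Another probe set of each did not pass, with 0.49 for PRDX4 (limma, adjusted p = 0.139) and 0.30 for ERP44 (adjusted p = 0.0989).

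All 14 measured genes of ER-associated degradation had positive differences, with a median of 0.30, but 1 passed. DERL1, a component of the channel that returns misfolded proteins to the cytosol, rose by 0.38 ± 0.08 (SE; limma, adjusted p = 0.0283). It did not pass in 5 of the 8 fits that left out 1 pool. SELENOS and SELENOK, selenoproteins of the same machinery, differed by 0.38 and 0.30 and did not pass (limma, adjusted p = 0.0747 and 0.0906).

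Of 19 genes of protein entry into the ER 4 rose, with 18 positive differences and a median of 0.26. SEC61A1, the channel subunit, had 11.04 ± 0.16 in lactating pools and 10.4 ± 0.15 in non-lactating pools (SD, n = 4 each), and rose by 0.67 (limma, adjusted p = 0.0127). SPCS3 and SPCS1, subunits of the signal peptidase, rose by 0.77 and 0.48 (limma, adjusted p = 0.0178 and 0.0350), and SRP14, a subunit of the signal recognition particle, by 0.35 (adjusted p = 0.0290). For SEC61A1 dimmer probe sets differed by 0.06 and 0.02, and for SPCS3 another probe set differed by -0.45 (limma, adjusted p = 0.129). A dim SPCS1 probe set differed by 0.06 (limma, adjusted p = 0.725). SPCS1 and SRP14 each passed in 2 of the 8 fits that left out 1 pool.

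Of 8 genes of retrieval and exit 2 rose. LMAN1, a lectin receptor that carries glycoproteins to the Golgi, had 8.35 ± 0.25 in lactating pools and 7.50 ± 0.21 in non-lactating pools (SD, n = 4 each) and rose by 0.85 (limma, adjusted p = 0.0142). SAR1A, a GTPase of the vesicle coat that leaves the ER, rose by 0.45 (limma, adjusted p = 0.0304) and passed in 2 of the 8 fits that left out 1 pool. Of 8 genes of ER calcium handling 0 passed, and the calcium pump ATP2A2 differed by 0.09, and by 0.0066 without lactating pool 1.

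Outside the ER, 1 of 9 cytosolic heat shock genes rose, HSPA4, by 0.51 (limma, adjusted p = 0.0133), and 9 of 9 differences were positive. Another HSPA4 probe set rose by 0.50 (limma, adjusted p = 0.0256), and a dim one differed by 0.09 (adjusted p = 0.671). Of 5 mitochondrial chaperones 0 passed and 5 were positive, with 0.22 for HSPD1 and 0.31 for HSPE1. The median difference was 0.31 for the cytosolic and 0.28 for the mitochondrial list, both above the 0.18 of the 84 other ER genes. Positive differences outside the members were therefore not particular to the ER.

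**Figure D4:**
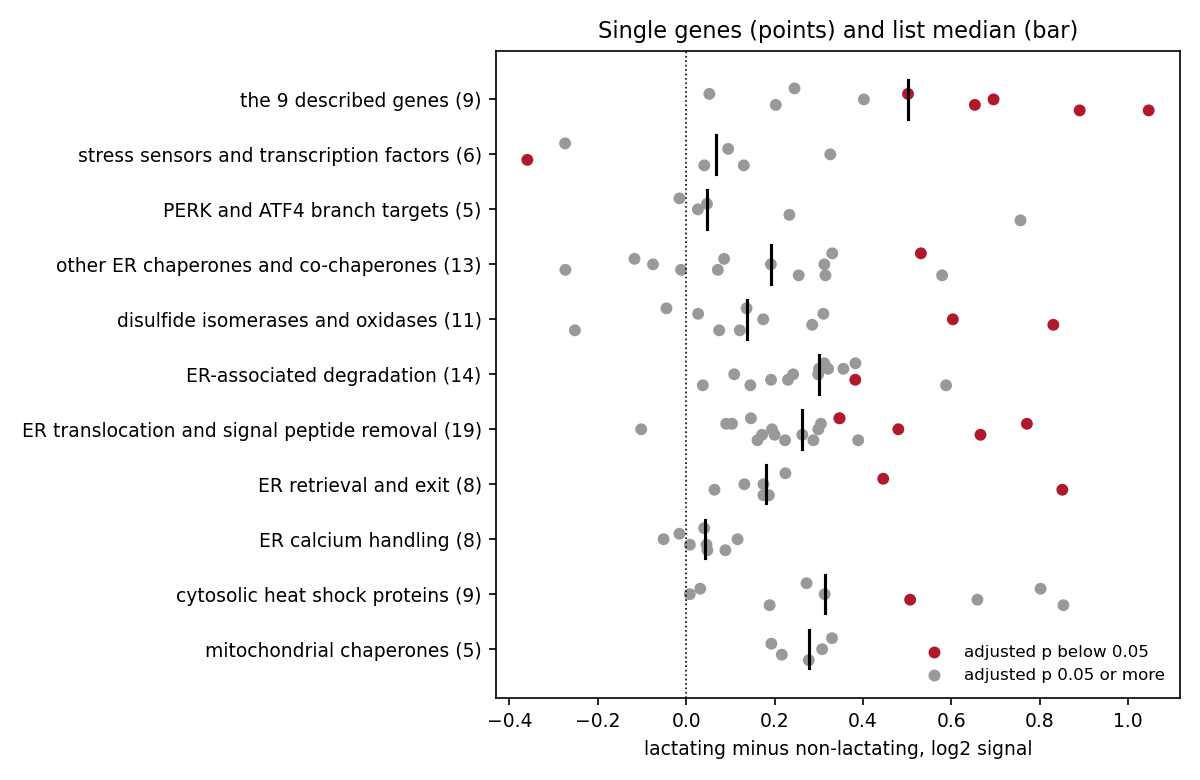
Difference in log2 signal, lactating minus non-lactating (horizontal axis), of each measured gene in the pathway lists, with red points where the limma adjusted p is below 0.05, grey points otherwise and a bar at each list's median. The members' median is 0.50 and that of the 84 other ER genes 0.18, against 0.01 for all genes. Outside the ER, the median is 0.31 for cytosolic heat shock genes and 0.28 for mitochondrial chaperones.

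Without lactating pool 2, lactating pool 4, non-lactating pool 1 or non-lactating pool 4, 5 of the 84 genes passed in place of 11. Over all 23999 probe sets 872, 598, 406 and 646 passed in these fits, in place of 1643. ERP44, PRDX4, SEC61A1, SPCS3 and LMAN1 passed in all 8 fits that left out 1 pool, on their brightest probe sets. With the 3' minus 5' covariate 0 of 84 passed in limma, as did 0 of 23999 probe sets. Of the 84 genes 15 had an unadjusted p below 0.05, and of the 23999 probe sets 2474.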

How the data were processed

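Liver RNA of 8 pools was measured on Affymetrix arrays. Values for 24123 probe sets are log2 signals that the authors made with Affymetrix Expression Console and RMA (background correction, quantile normalisation and summary of probes), per the submitters' processing notes, which give no version. After 124 controls were left out, 23999 probe sets were tested, of which 11233 had 1 gene symbol, 327 several and 12439 none. Current symbols came from Sscrofa11.1 gene tables, matched by Entrez identifier for 9065 probe sets, RefSeq transcript for 29 and accession for 6, and 2133 were kept as deposited.

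Lactating and non-lactating pools were compared with limma 3.58.1 (lmFit, eBayes) in R 4.3.3, 2-sided, with Benjamini-Hochberg adjustment and a threshold of 0.05. Python 3.11.15 and scipy 1.17.1 served for the exact permutation test and correlations. The members, lists and tests were chosen with earlier results of these data known. Named genes are the members, up to 5 genes of each list that passed, its 2 brightest, and the 8 genes most like the members' profile. Text on a list may omit some of these. ASNS and DNAJB9 fell outside this rule and were named after their values were seen. The scripts were tested on simulated data.

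Pools of equal number share only that number and were not taken as pairs. Their deviations from the group means correlated at 0.07 to 0.24. Pools of unequal number were not set beside these, so the values do not decide whether pools were paired. Alternatives were other scalings, variance models, dim-probe filters, the series matrix, a covariate, a replicate block, all probe sets of a gene, and leaving out each pool.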

Additional observations from a re-analysis of the deposited data

Results flagged for a closer look

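In groups of 4 pools, a pool was singled out where its gap to the nearest other pool filled most of the group's range (Dixon's 95% criterion). Chance flags about 1 in 20 groups. In all 11 of 114 groups were singled out, but these include genes chosen for their likeness to the members' profile, so this number is not read against chance. Among the members these were CRELD2, highest in lactating pool 1 at 10.27, XBP1, highest in lactating pool 1 at 12.32 and lowest in non-lactating pool 2 at 11.93, and DDIT3, highest in non-lactating pool 3 at 8.63. The probe set shared by HSP90B1 and LOC100515139 was lowest in non-lactating pool 4 at 9.43. A probe set without a gene name that overlaps HSPA5 in the deposited alignment was highest in lactating pool 1 at 9.32.

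Outside the members, FGG was highest in lactating pool 1 at 14.51 and SAR1B lowest in lactating pool 1 at 12.47. ATF6B was lowest in non-lactating pool 2 at 8.88. ICE2 at 7.80 and C5 at 12.86 were highest in non-lactating pool 3, and with FGG they were chosen for a profile that peaks in these pools.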

How the results depend on the processing

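The numbers of probe sets, members and other ER genes that changed were 1643, 5 and 11. With the 3' minus 5' covariate they were 0, 0 and 0 in limma, with 2474, 4 and 15 at an unadjusted p below 0.05. With the equal-variance test they were 0, 0 and 0 after adjustment, with 4964, 7 and 38 unadjusted. Leaving out 1 pool at a time gave 406 to 1424 probe sets, 0 to 5 members and 5 to 10 other ER genes. The median correlation of the members was 0.47 to 0.77 when 1 pool was left out, 0.48 by Spearman, and 0.17 without both lactating pool 1 and non-lactating pool 3. With the replicate number as a block, 1790 probe sets, 3 members (CRELD2, DNAJB11 and KDELR3) and 12 other ER genes passed, although the pools share only a number. With the mean of all probe sets of a gene, 6 members passed, PDIA4 being added (adjusted p = 0.0399). Cyclic loess, median centring, an intensity trend, robust fitting, the dim filter and the series matrix gave 1543 to 1810 probe sets.

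Some small differences changed sign. With cyclic loess XBP1 was -0.017, DDIT4 -0.037 and TMBIM6 -0.068. With the covariate CANX was 0.039, TMBIM6 -0.12, HSP90AA1 -0.031 and HSP90AB1 -0.024, and with median centring CANX was 0.019. MBTPS1 was -0.052 with the mean of its probe sets. Leaving out 1 pool gave -0.046 to 0.096 for XBP1, -0.12 to 0.23 for DDIT4, -0.067 to 0.021 for CANX and -0.028 to 0.056 for TMBIM6. The causes were not tested. The alternatives for single genes other than members, and the joint removal of 2 pools, were chosen after seeing the data. Counts of promoter motifs were not run. Signal over background was not assessed, since no detection calls were used.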

Other observations

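Probe sets of the same ER gene did not always give the same call, as for PRDX4, ERP44, SEC61A1, SPCS1 and SPCS3 above. PDIA3, a disulfide isomerase of glycoproteins, differed by 0.31 ± 0.11 (SE) on its brightest probe set, without overlap of the groups (limma, adjusted p = 0.129), while a dimmer one rose by 0.88 (adjusted p = 0.0227). SAR1B, a GTPase of the ER exit coat, differed by 0.22 ± 0.08 (SE) on its brightest probe set (limma, adjusted p = 0.140) and rose by 0.85 on another (adjusted p = 0.0239). A dimmer CANX probe set fell by 0.47 (limma, adjusted p = 0.0214), against a difference of -0.01 on the brightest. The 3 DERL1 probe sets all rose, by 0.38, 0.61 and 0.53.

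ASNS, the asparagine synthetase of the ATF4 branch, had 7.33 ± 0.75 in lactating pools and 6.57 ± 0.08 in non-lactating pools (SD, n = 4 each). Lactating pools 1 and 2 had 8.19 and 7.73, and lactating pools 3 and 4 had 6.71 and 6.67, against at most 6.65 in non-lactating pools. The difference of 0.76 did not pass (limma, adjusted p = 0.170), and it was 0.47 without lactating pool 1.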
